A study of Mus musculus with 12 samples.

Results

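The collagen genes are those whose symbol is Col, a type number, a and a chain number. By that pattern 43 of the 26219 genes in the table are collagen genes, and none was chosen for its level. Transcript levels were measured in 12 mouse RNA libraries by SC3-seq, which amplifies cDNA from 1 ng of total RNA and reads the 3′ ends of mRNA. They come from 6 cell lines, each sampled as 2 culture replicates. One kind of line is the germline stem cell (GSC), a spermatogonial stem cell kept in culture. Lines GSC_1 and GSC_2 were derived from separate testes of postnatal day 7. The other 4 are germline stem cell-like cells (GSCLCs), grown out of reconstituted testes that had been held in culture. Those of GSCLC_1 and GSCLC_4 stayed at 34°C for 3 weeks, here condition 1, and those of GSCLC_2 and GSCLC_3 at 37°C for 2 weeks and 34°C for 1 week, here condition 2. All 6 lines share the strain background C57BL/6 x 129/SvJcl, the AcrAct_EGFP reporter and one medium with GDNF, bFGF, LIF and EGF. Each line is a single derivation, and the labels do not say whether feeder cells were in the cultures. GSCs are commonly grown on mouse embryonic fibroblasts, which make much collagen.

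Collagens are secreted proteins whose chains wind around each other into a helix built on a repeat that begins with glycine. Fibrillar collagens form the tension-bearing fibrils of connective tissue, type IV collagens form the mesh of basement membranes, and other families coat fibrils, make fine filaments or span the plasma membrane. In the testis, spermatogonia sit on the basement membrane of the seminiferous tubule, and peritubular cells and fibroblasts around the tubule make most fibrillar collagen.

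Levels are in RPM, reads scaled to one total per library, and were not scaled by length, since a 3′-end method reads each mRNA at its end. The steps of the low values imply 3031705 to 4644183 counted reads per library, so 1 read is worth 0.215 to 0.33 RPM. The summed level of germ cell markers was 3904 to 4502 RPM over the GSC libraries and 3838 to 4597 RPM over the GSCLC libraries, and 12 of 12 were tested with 0 called by limma (2 at unadjusted p under 0.05). Group values are means over lines ± SD, with n = 2 GSC and n = 4 GSCLC lines. Changes are on the log2(RPM + 1) scale with their SE and the Benjamini-Hochberg adjusted p of limma, and a gene is called at an adjusted p under 0.05.

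Of the 43 collagen genes, 21 reached at least 5 RPM in at least 2 libraries and were tested. Of these 16 reached that level in both kinds of line. Col2a1 and Col17a1 entered only through GSCLC libraries and Col6a4 and Col12a1 only through GSC libraries, so the filter favours a difference in them, and Col8a1 entered through 1 library of each kind. Another 20 were above 0 somewhere but reached at most 5.51 RPM in any library, and Col9a1 and Col4a4 were at 0 in all 12. The sum over the 43 genes was 621 ± 229 RPM for GSC lines and 431 ± 87.4 RPM for GSCLC lines. The 11 fibrillar genes held the largest part, with 286 ± 124 RPM for GSC lines and 181 ± 58.6 RPM for GSCLC lines. The 9 genes of basement membranes summed to 187 ± 55.1 and 152 ± 23.6 RPM, the 4 transmembrane genes to 67.1 ± 13.5 and 42.7 ± 7.48 RPM and the 6 type VI genes to 47.2 ± 28.8 and 26.2 ± 9.95 RPM. The fibril-associated genes summed to 27.8 ± 5.10 and 23.4 ± 7.31 RPM. The 2 GSC lines differed from each other by enough that the group SDs are wide.

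**Figure D1:**
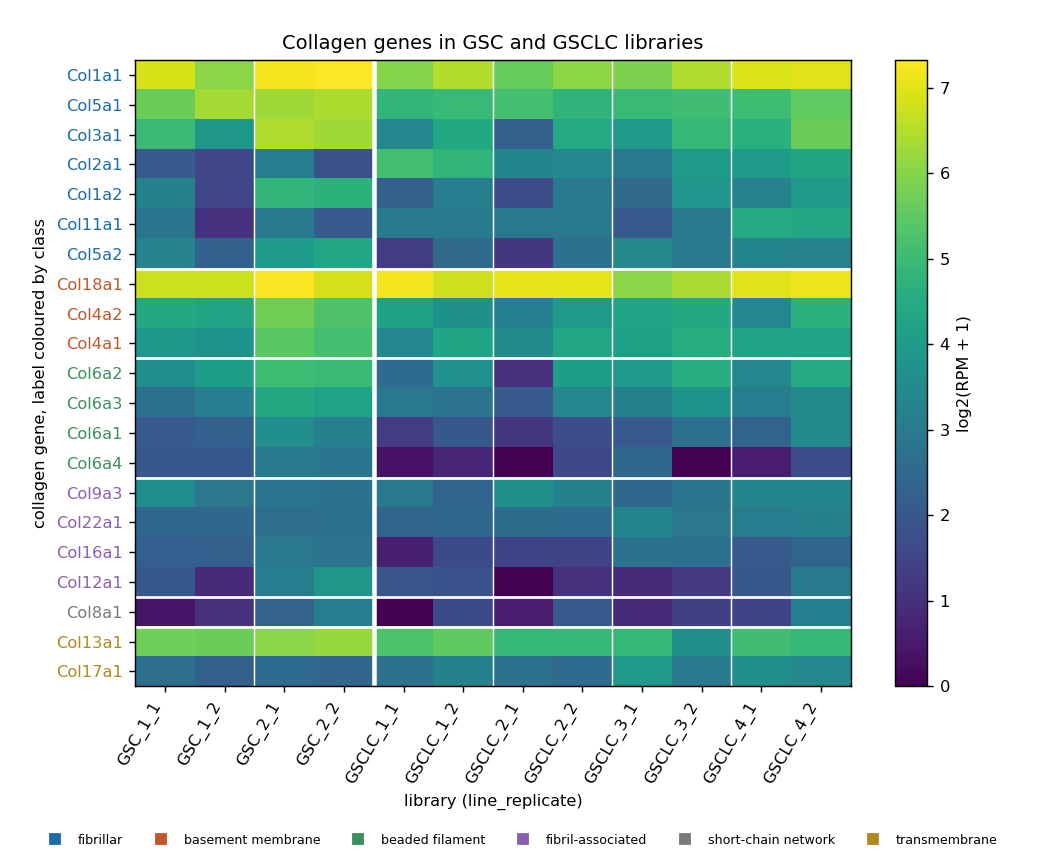
Level of the 21 tested collagen genes (rows, grouped by class) in the 12 libraries (columns, line and replicate) as log2(RPM + 1), coloured from dark (0) to yellow (high). Both GSC_2 libraries are brighter than those of GSC_1 across most fibrillar, type IV and type VI rows. Col2a1 is darker in the GSC than in the GSCLC libraries, except that GSC_2 replicate 1 lies above GSCLC_3 replicate 1.

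Between GSCLC and GSC lines 1 of the 21 tested collagen genes rose and 1 fell, and 19 did not pass. Of all 11788 tested genes, 3.02% were called, 1.21% as higher and 1.81% as lower, so 2 of 21 is a small count against a low background. The gene that fell was Col5a1 and the one that rose was Col2a1, both fibrillar. Col2a1 entered the test only through GSCLC libraries, so the filter favours its rise. With every gene above 0 tested it was not called (adjusted p = 0.126). At an unadjusted p under 0.05 there were 6 of 21 collagen genes, against 16.9% of all tested genes. The log2 change was below 0 for 16 of the 21, against 50.8% of all tested genes, with a median of -0.62 for the collagens and -0.01 for all genes. Part of this lean rests on GSC_2, whose mean was at least 2 times that of GSC_1 in 11 of the 21. GSC_1 sums lay within the range of GSCLC line sums for fibrillar, basement membrane, type VI and fibril-associated genes. For transmembrane genes the GSC_1 sum lay above that range. Line means did not overlap between the kinds of line for 2 collagen genes that were higher and 4 that were lower in every GSCLC line. Over all tested genes 13.7% separated in the first way and 14.9% in the second, 28.6% in either, so 6 of 21 lies at the background.

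**Figure D2:**
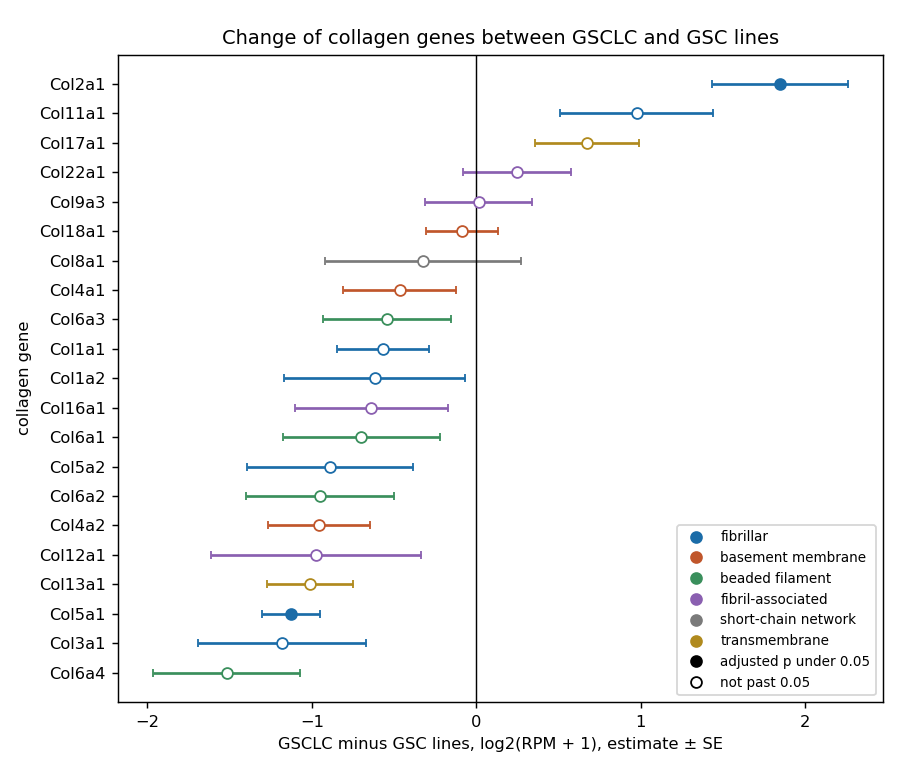
Log2 change between GSCLC and GSC lines (x axis, estimate ± SE from limma, n = 4 and 2 lines) for each tested collagen gene (y axis), coloured by class and filled where the adjusted p was under 0.05. Filled points are Col2a1 at 1.85 and Col5a1 at -1.13, and the open points run from Col6a4 at -1.52 to Col11a1 at 0.98.

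Col5a1 encodes the main chain of type V collagen, a minor fibrillar collagen that sits inside type I fibrils and sets where they begin and how thick they grow. Its level was 49.9 and 79.2 RPM in GSC_1 and 76.3 and 84.2 RPM in GSC_2. In the GSCLC libraries it ranged from 26.3 RPM to 45.8 RPM with a median of 31.3 RPM, so that every GSC library lay above every GSCLC library. The group values were 72.4 ± 11.1 and 32.4 ± 4.47 RPM, a log2 change of -1.13 ± 0.18 with adjusted p = 0.00777. The share of all tested genes whose single libraries separate the kinds of line was not computed, here or for later genes. Line means were lower in every GSCLC line for 14.9% of all tested genes. Col5a1 (identifier 12831) lies on chromosome 2 at 27886381 to 28039510 on GRCm38. The call held in each of the 12 fits with 1 library left out. With each of the 4 GSCLC lines left out in turn it also held. It was lost in the replicate 1 libraries alone (-0.98, adjusted p = 0.0782). It was also lost without line GSC_1 (-1.298) or line GSC_2 (-0.95), either of which leaves a single GSC line.

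Markers of other cells were read beside this fall. The 25 fibroblast and feeder markers, which hold no collagen, summed to 434 and 451 RPM in GSC_1, 798 and 921 RPM in GSC_2 and 367 to 685 RPM in the GSCLC libraries. In this sum GSC_1 lay within the GSCLC range and GSC_2 above it. Of the 21 tested markers of the list 0 were called by limma, 7 were at an unadjusted p under 0.05 and 18 had a change below 0, with a median of -0.65. None of the 25 was at 0 in all libraries. Markers of Leydig cells, the steroid-making cells of the testis, summed to 75.6 and 109 RPM in replicate 1 of the GSC lines, 12.1 and 11.7 RPM in replicate 2 and 3.99 to 8.44 RPM in GSCLC libraries. Of its 3 tested markers 2 fell, and Cyp17a1 and Lhcgr were at 0 in all libraries. Col5a1 was the higher in replicate 2 of both GSC lines, as was the fibroblast sum, and the Leydig sum was the lower there. In the replicate 2 libraries alone the change of Col5a1 was -1.27 ± 0.23 with adjusted p = 0.0135. The part of fibroblasts and of Leydig cells in the fall of Col5a1 was not tested. In bulk RNA, fewer cells of a type and less RNA per cell cannot be told apart.

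Col2a1 encodes the chain of type II collagen, the fibrillar collagen of cartilage, which is also made by a few embryonic tissues. It stood at 3.26 and 1.94 RPM in GSC_1 and at 7.63 and 2.55 RPM in GSC_2. GSCLC_1 had 33.7 and 26.9 RPM, GSCLC_4 had 14.8 and 19.1 RPM, GSCLC_3 had 6.78 and 14.8 RPM, and GSCLC_2 had 9.28 and 9.65 RPM. All GSCLC line means were above both GSC line means, but 1 library crossed, since replicate 1 of GSC_2 was above replicate 1 of GSCLC_3. These values rest on 9 to 31 implied reads per GSC library and 24 to 118 per GSCLC library. The group values were 3.84 ± 1.76 and 16.9 ± 9.53 RPM, a log2 change of 1.85 ± 0.41 with adjusted p = 0.0361. Col2a1 (identifier 12824) lies on chromosome 15 at 97975602 to 98004724.

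The rise of Col2a1 kept its sign in all 28 alternative settings and passed in 16 of them. It was lost without replicate 2 of GSC_2 (1.53, adjusted p = 0.107), of GSCLC_3 (1.72, adjusted p = 0.104) or of GSCLC_4 (1.80, adjusted p = 0.0657). Without line GSC_1 the change was 1.52 and without line GSC_2 it was 2.17, with the call lost in both. The call was also lost without line GSCLC_1 (1.53, adjusted p = 0.0669) or GSCLC_4 (1.79, adjusted p = 0.0648). It held without GSCLC_2 or GSCLC_3. In the replicate 1 libraries alone the change was 1.25 with adjusted p = 0.342, and in the replicate 2 libraries alone 2.44 with adjusted p = 0.00906. Testing every gene above 0 gave adjusted p = 0.126. The called rise therefore depends on the choice of libraries and of tested genes.

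In order of line means Col2a1 was highest in GSCLC_1 at 30.3 RPM, followed by GSCLC_4 at 17.0, GSCLC_3 at 10.8, GSCLC_2 at 9.46, GSC_2 at 5.09 and GSC_1 at 2.60 RPM. The 2 libraries of GSCLC_1 lay above those of GSCLC_4, and those of GSCLC_2 above those of GSC_2. The other neighbours in this order overlapped in their libraries. Type IX and type XI collagens accompany type II collagen in cartilage, and their chains were at unlike levels. Col9a1 was at 0 throughout, Col9a2 reached 5.51 RPM in replicate 1 of GSCLC_4 and Col9a3 reached 11.8 RPM. Col11a2 reached at most 0.751 RPM, while Col11a1 stood at 21.5 and 19.5 RPM in GSCLC_4. Of 10 other cartilage markers 0 reached the test. They summed to 6.24 to 11.4 RPM in GSC and 5.71 to 13.3 RPM in GSCLC libraries. Acan, the large proteoglycan of cartilage, stood at 2.53 ± 0.0219 and 2.23 ± 0.873 RPM, and Sox9, the factor that drives Col2a1 in cartilage, at 4.17 ± 2.36 and 1.66 ± 0.665 RPM.

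The genes most like Col2a1 over the 12 libraries, among all tested, were Dchs1, a large cadherin, Naalad2 and Bex1, with Pearson's r of 0.93, 0.92 and 0.92. These values describe 12 libraries that share 6 lines. Dchs1 ranged from 2.37 to 8.12 RPM in GSC and from 7.83 to 16.3 RPM in GSCLC libraries. Bex1 was at most 115 RPM in GSC and ran from 123 to 185 RPM in GSCLC libraries, with no overlap.

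**Figure D3:**
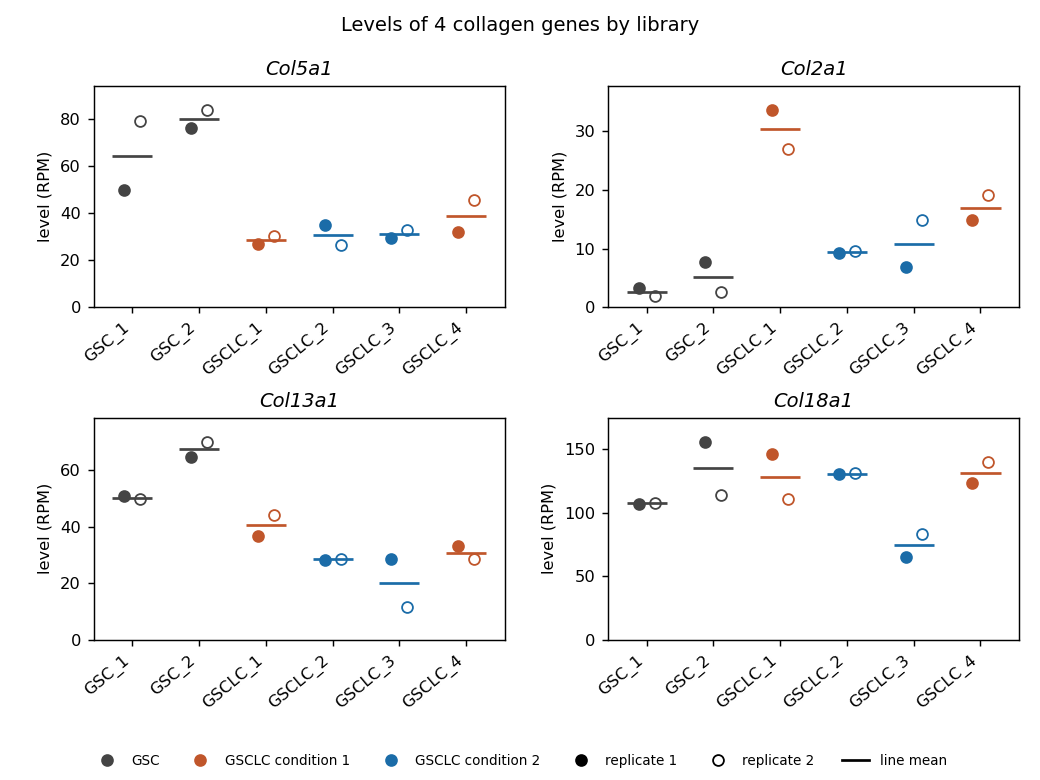
Level in RPM (y axis, linear from 0) of Col5a1, Col2a1, Col13a1 and Col18a1 in each line (x axis), with filled points for replicate 1, open points for replicate 2 and a bar at the line mean. Col5a1 and Col13a1 show every GSC library above every GSCLC library, Col2a1 is highest in GSCLC_1, and Col18a1 is low in GSCLC_3 alone.

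The remaining fibrillar genes did not pass. Col1a1, the α1 chain of type I collagen and the most abundant fibrillar gene here, was at 117 and 64.8 RPM in GSC_1 and at 149 and 159 RPM in GSC_2. GSCLC libraries ran from 48.1 RPM to 126 RPM, with a log2 change of -0.57 ± 0.28 and adjusted p = 0.333. Col3a1, the chain of type III collagen of soft tissues, was at 31.0 and 13.6 RPM in GSC_1, 87.1 and 76.5 RPM in GSC_2 and 3.76 to 49.8 RPM in GSCLC libraries, with -1.18 ± 0.51 and adjusted p = 0.267. Its GSC_1 values lay inside the GSCLC range and its GSC_2 values above it. Col11a1, a chain of type XI collagen, was the only other gene above 0 in its change among the 7 fibrillar genes tested (0.98 ± 0.46, adjusted p = 0.313). It was highest in GSCLC_4, against 1.08 to 7.13 RPM in all other libraries.

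Among basement membrane genes none of 3 tested was called, and 1 was at an unadjusted p under 0.05. Col18a1, whose protein is a proteoglycan of basement membranes and the source of the fragment endostatin, was on average the most abundant collagen gene. It was at 107 and 108 RPM in GSC_1 and 156 and 114 RPM in GSC_2, and GSCLC libraries had 65.0 to 146 RPM (-0.09 ± 0.22, adjusted p = 0.883). GSCLC_3 held the 2 lowest libraries, at 65.0 and 83.6 RPM. Type IV collagen is built mainly of α1 and α2 chains from Col4a1 and Col4a2. Col4a2 was at 20.9 and 18.5 RPM in GSC_1, 52.2 and 37.8 RPM in GSC_2 and 8.02 to 24.7 RPM in GSCLC libraries (-0.95 ± 0.31, adjusted p = 0.137). Col4a1 was at 14.0 and 12.5 RPM in GSC_1, 42.8 and 34.7 RPM in GSC_2 and 9.70 to 22.6 RPM in GSCLC libraries (-0.47 ± 0.34, adjusted p = 0.535). For both genes GSC_2 stood apart and GSC_1 fell in the range of the GSCLC libraries. Without line GSC_2 the change of Col4a1 was 0.27 and that of Col4a2 was -0.39, against -1.20 and -1.52 without line GSC_1.

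The 6 type IV genes lie in 3 head-to-head pairs, of which Col4a1 and Col4a2 overlap by 85 bases at their starts on chromosome 8, and Col4a4 and Col4a3 by 114 bases on chromosome 1. Between Col4a6 and Col4a5 on chromosome X lie 1274 bases. In the RefSeq windows for GRCm38.p6 the starts of Col4a1 and Col4a2 enclose 22 bases at chr8:11312805-11312826, shown on the strand of Col4a1 because both genes of the pair are read from this stretch.
Col4a1 and Col4a2: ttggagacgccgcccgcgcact
The RPM ratio of Col4a1 to Col4a2 ran from 0.567 to 1.87 over the 12 libraries. The other pairs were low. Col4a3 reached 1.94 RPM beside Col4a4 at 0, Col4a5 reached 4.68 RPM, and Col4a6 was at 0.978, 0.431, 1.97 and 0 RPM in the GSC libraries and above 0 in 1 of 8 GSCLC libraries, at 0.25 RPM. That is 3, 2, 8 and 0 implied reads against 1 read in all, too few for the filter. With every gene above 0 tested, Col4a6 was called with a change of -0.73 ± 0.11 and adjusted p = 0.0399.

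Transmembrane collagens sit in the plasma membrane by one end. Col13a1, a component of cell adhesion sites, was at 50.8 and 49.7 RPM in GSC_1 and 64.7 and 70.2 RPM in GSC_2. The GSCLC libraries ran from 11.6 RPM through a median of 28.7 RPM to 44.2 RPM, all below the GSC libraries. Group values were 58.9 ± 12.1 and 30.0 ± 8.41 RPM, with a log2 change of -1.01 ± 0.26 and adjusted p = 0.0668, so it did not pass. On single libraries with the line as a correlated block it passed with adjusted p = 0.0269. With the replicate number added to that fit it passed with adjusted p = 0.0327. Of 28 alternative settings it passed in 5, among them 1 of the 12 fits with 1 library left out. Without a trend it did not pass (adjusted p = 0.152). Col17a1, the hemidesmosome collagen, was at 3.88 to 5.22 RPM in GSC and 4.96 to 14.4 RPM in GSCLC libraries (0.68 ± 0.32, adjusted p = 0.31), with the line means of GSCLC_3 and GSCLC_4 highest at 10.6 and 10.4 RPM.

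Type VI collagen forms beaded filaments around cells, mostly from the chains of Col6a1, Col6a2 and Col6a3. None of 4 tested type VI genes was called, 1 was at an unadjusted p under 0.05, and all 4 had a change below 0. Col6a2 was at 11.1 and 15.7 RPM in GSC_1, 32.2 and 29.6 RPM in GSC_2 and 1.00 to 22.9 RPM in GSCLC libraries (-0.95 ± 0.45, adjusted p = 0.314). Col6a3 was at 5.54 and 7.75 RPM in GSC_1, 20.9 and 18.1 RPM in GSC_2 and 3.26 to 12.9 RPM in GSCLC libraries (-0.54 ± 0.39, adjusted p = 0.521). Both were higher in each GSC_2 library than in any GSCLC library, which GSC_1 was not. The low gene Col6a4, which entered the test through the GSC_2 libraries alone, was at 2.93 to 6.89 RPM in GSC and 0 to 4.52 RPM in GSCLC libraries (-1.52 ± 0.45, adjusted p = 0.101).

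Fibril-associated collagens bind the surface of fibrils. Of 4 tested, 0 were called by limma and 0 were at an unadjusted p under 0.05. Col9a3 was at 5.61 to 10.8 RPM in GSC and 4.26 to 11.8 RPM in GSCLC libraries (0.02 ± 0.33, adjusted p = 0.988). The annotated end of Col9a3 overlaps Tcfl5 on the opposite strand, so its reads may not be its own. Col22a1 was at 4.52 to 5.36 RPM in GSC and 3.99 to 9.05 RPM in GSCLC libraries (0.25 ± 0.33, adjusted p = 0.747). Neither gene separated the kinds of line.

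Between condition 2 and condition 1 no collagen gene was called by limma, with 2 of 21 at an unadjusted p under 0.05. Over all tested genes 0% were called and 4.68% were at an unadjusted p under 0.05. Those 2 were Col2a1, with 23.6 ± 9.44 RPM under condition 1 against 10.1 ± 0.948 RPM under condition 2 (n = 2 lines each, log2 -1.13 ± 0.36), and Col13a1, at 35.7 ± 6.81 and 24.3 ± 5.97 RPM (-0.60 ± 0.26). Both had adjusted p = 0.933. All 4 condition 1 libraries of Col2a1 were at 14.8 RPM or more, and 1 condition 2 library, replicate 2 of GSCLC_3, also stood at 14.8 RPM. The change was below 0 for 15 of the 21, against 62.1% of all tested genes.

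The fibroblast sum was compared with the collagen genes between the GSC lines and between culture replicates. In 11 of the 21 tested collagen genes the mean of GSC_2 was at least 2 times that of GSC_1, against 2.38% of all tested genes. Among these were Col1a2 at 5.16 times, Col3a1 at 3.68, Col6a3 at 2.94, Col4a1 at 2.93, Col5a2 at 2.83 and Col6a2 at 2.31 times. Col2a1 stood at 1.96 times, Col5a1 at 1.24, Col13a1 at 1.34 and Col18a1 at 1.25 times. The Col2a1 ratio rests on replicate 1 of GSC_2 at 7.63 RPM. Its replicate 2, at 2.55 RPM, lay between the GSC_1 values of 3.26 and 1.94 RPM. The fibroblast sum had a line mean of 442 RPM in GSC_1 and 859 RPM in GSC_2. In GSC_2 Dcn, a proteoglycan of fibroblasts, was at 16.7 and 33.4 RPM against 4.89 and 4.09 RPM in GSC_1. Lox, which cross-links collagen, was at 40.1 and 70.7 RPM in GSC_2 against 8.47 and 19.6 RPM in GSC_1. Other markers of the list overlapped between the 2 lines. Timp1 was at 104 and 86.7 RPM in GSC_2 against 93.9 and 93.9 RPM in GSC_1. Pdgfrb was at 3.94 and 7.65 RPM in GSC_2 against 5.54 and 1.94 RPM in GSC_1.

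The sum of all 25 fibroblast markers was higher in replicate 2 than in replicate 1 in each of the 6 lines, by 1.17 to 1.48 times in GSCLC lines and by 1.04 and 1.15 times in GSC_1 and GSC_2. With a sum of 5 of the markers, replicate 1 was the higher in GSC_1 and in GSCLC_3, at ratios of 0.846 and 0.953. Over all 6 lines only Col8a1, a low gene of a short-chain network collagen, followed the sum of 25 every time, against 1.41% of all tested genes. Col5a1, Col1a1, Col6a1 and Col6a2 each followed it in 5 of 6 lines, Col3a1 and Col1a2 in 4 and Col2a1 in 3. In the 4 GSCLC lines 6 of 21 collagen genes were higher in replicate 2 every time, against 5.98% of all tested genes. These were Col3a1, Col1a2, Col1a1, Col6a1, Col6a2 and Col8a1. The GSCLC lines were taken alone after the values were seen, so this count is a description. In GSC_2, whose sum differed about as much as that of GSCLC_3, Col3a1, Col1a2, Col6a1 and Col6a2 went against the sum. By the sum of 5 markers 2 of 21 followed in the GSCLC lines, and the share of all tested genes was not computed. None of these 6 could be among them. They were taken as higher in replicate 2 of every GSCLC line, and in GSCLC_3 the sum of 5 was lower there.

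From replicate 1 to replicate 2, Col3a1 was 2.14 times as high in GSCLC_1, 5.69 times in GSCLC_2, 1.96 times in GSCLC_3 and 2.05 times in GSCLC_4. In GSC_1 and GSC_2 the same ratio was 0.438 and 0.878. Col1a2 had ratios of 2.10, 3.01, 2.75 and 1.67 in the GSCLC lines and 0.238 and 0.923 in GSC_1 and GSC_2. For Col5a1 the ratios were 1.13, 0.751, 1.11 and 1.43 in the GSCLC lines and 1.59 and 1.10 in GSC_1 and GSC_2. For Col2a1 they were 0.80, 1.04, 2.19 and 1.29 in the GSCLC lines and 0.595 and 0.334 in GSC_1 and GSC_2. The median over the tested collagens of the mean log2 difference between replicates in GSCLC lines was 0.39, against -0.01 over all tested genes. Whether cells other than germ cells account for these differences was not tested.

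**Figure D4:**
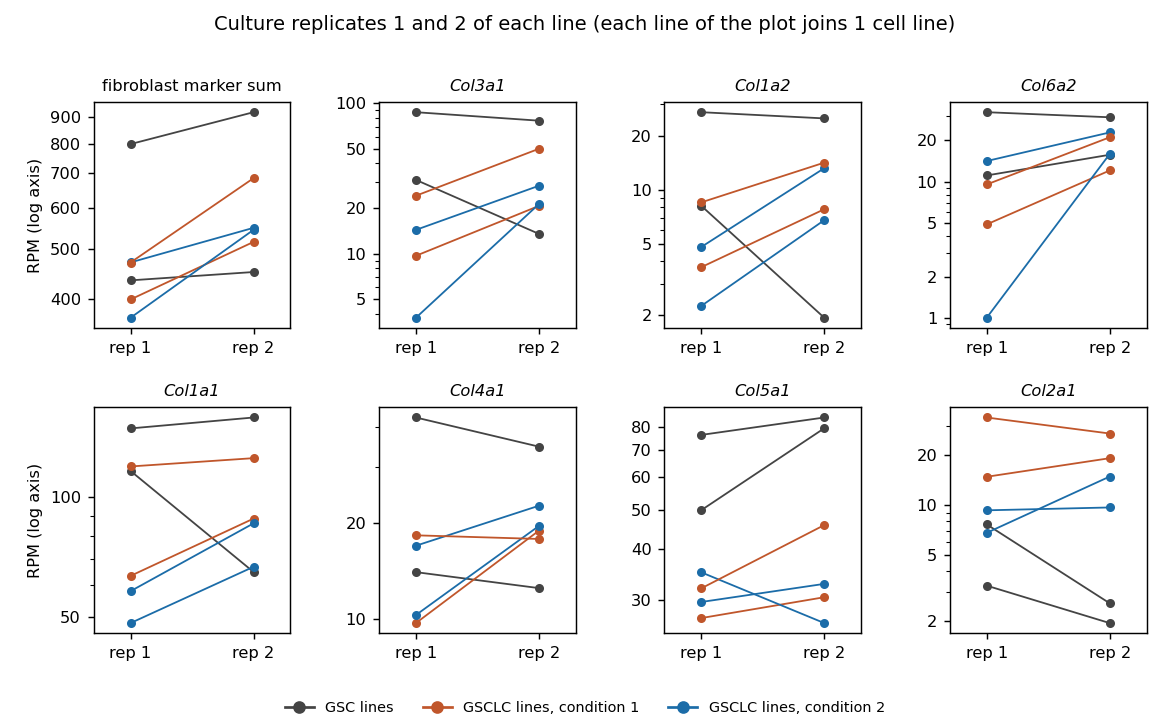
RPM on a log axis (y) in culture replicates 1 and 2 (x) for the summed fibroblast markers and 7 collagen genes, with each segment joining the 2 libraries of one cell line. The GSCLC segments of Col3a1, Col1a2, Col6a2 and Col1a1 all go up from replicate 1 to 2, those of Col5a1 and Col2a1 do not all go up, both GSC segments of Col5a1 go up, and GSC_1 goes down for Col3a1, Col1a2 and Col1a1.

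The upstream sequences of Col3a1 and Col1a2, which were higher in replicate 2 of every GSCLC line, and of Col5a1 and Col13a1, whose libraries separated the kinds of line, are shown to let the start regions of these groups be compared. They come from RefSeq windows for GRCm38.p6 of the 250 bases before a gene's start, kept only as far as they lie outside the annotated gene. Windows were found for 35 of the 43 genes and not for the other 8, among them Col1a1, Col2a1 and Col5a2. In the sequences below, capitals mark matches on either strand to the TATA box motif TATAAA, to the core of the CCAAT box, or to the GC box core GGGCGG. The stretch of Col4a1 and Col4a2 given earlier was not marked, though its ccgccc matches GGGCGG on the other strand. No match overlapped another in the sequences shown. Col3a1 is at chr1:45311288-45311537 on the plus strand, Col1a2 at chr6:4505368-4505617 on the plus strand, Col5a1 at chr2:27886175-27886380 on the plus strand and Col13a1 at chr10:61979207-61979358 on the minus strand.
Col3a1: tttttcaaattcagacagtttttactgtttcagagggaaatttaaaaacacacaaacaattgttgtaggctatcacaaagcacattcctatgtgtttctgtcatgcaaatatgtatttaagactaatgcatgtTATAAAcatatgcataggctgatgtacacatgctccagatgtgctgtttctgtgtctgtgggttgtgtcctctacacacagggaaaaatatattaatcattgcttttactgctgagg
Col1a2: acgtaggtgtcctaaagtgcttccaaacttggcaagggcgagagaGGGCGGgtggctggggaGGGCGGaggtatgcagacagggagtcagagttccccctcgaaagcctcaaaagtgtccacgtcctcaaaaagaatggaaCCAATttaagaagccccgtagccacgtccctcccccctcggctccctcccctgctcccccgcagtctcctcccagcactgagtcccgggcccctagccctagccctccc
Col5a1: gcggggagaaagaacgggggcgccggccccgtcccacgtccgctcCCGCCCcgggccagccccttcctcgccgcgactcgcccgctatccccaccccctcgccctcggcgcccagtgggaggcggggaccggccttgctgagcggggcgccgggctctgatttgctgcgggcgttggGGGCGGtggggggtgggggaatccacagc
Col13a1: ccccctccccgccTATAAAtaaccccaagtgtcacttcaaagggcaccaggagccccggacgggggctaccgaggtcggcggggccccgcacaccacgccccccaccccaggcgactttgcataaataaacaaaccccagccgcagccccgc
Over the full windows the GC content was 35.2% for Col3a1, 62% for Col1a2, 76.4% for Col5a1 and 68.8% for Col13a1, against a median of 52.4% over all 32851 windows and 62% over the 17 windows of tested collagens. Col3a1 and Col13a1 each hold 1 TATAAA, which 12.4% of all windows and 3 of the 17 hold. Col1a2 and Col5a1 each hold 2 matches to GGGCGG, found in 32.7% of all windows and 10 of the 17, and Col1a2 also holds 1 CCAAT, found in 33.8% and 8 of the 17. The groups did not share one arrangement of these letters, and a match describes the sequence only.

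The RPM ratio of chains that assemble into one protein varied across libraries, with several of the extreme values on few reads. Type I collagen is mostly made of α1 chains from Col1a1 with fewer α2 chains from Col1a2. The RPM ratio of Col1a1 to Col1a2 was 14.3 and 33.4 in GSC_1 but 5.52 and 6.37 in GSC_2, and 6.51 to 21.3 in GSCLC libraries. The highest ratio, in GSC_1 replicate 2, and the 21.3 of GSCLC_2 replicate 1 each stand on 9 implied reads of Col1a2. Within each GSCLC line the ratio was lower in replicate 2, where the fibroblast sum was higher, for example 17.1 and 11.3 in GSCLC_1 and 21.3 and 9.85 in GSCLC_2. Col1a1 thus varied less than Col1a2 between these libraries. Col5a1 to Col5a2 ranged from 3.00 to 28.0, the highest in GSCLC_2 replicate 1 on 5 implied reads of Col5a2. Col4a1 to Col4a2 ran from 0.567 to 1.87. Col6a1 to Col6a2 ran from 0.148 to 1.25 with a median of 0.285. Col6a3 to Col6a2 ran from 0.484 to 3.25 with a median of 0.585. Both type VI ratios were highest in GSCLC_2 replicate 1, on 4 implied reads of Col6a2. A 3′-end level depends on how each gene's end is annotated, so a ratio between genes is not a ratio of mRNA molecules.

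Other genes of the collagen pathway were given as lists chosen with earlier results of these data known. Of 28 tested genes for synthesis, folding, secretion and cross-linking, 0 were called by limma, with 4 at an unadjusted p under 0.05 and a median log2 change of -0.22. P4hb, a subunit of prolyl 4-hydroxylase, was at 487 ± 22.8 and 420 ± 50.1 RPM, and Serpinh1, the collagen chaperone HSP47, was at 12.3 ± 6.94 and 8.75 ± 2.18 RPM. Lox was at 34.7 ± 29.2 and 10.9 ± 3.17 RPM. Of 13 tested partners of type IV collagen in basement membranes, 1 rose and 1 fell. The laminin chain gene Lamb1 rose from 48.8 ± 1.43 to 108 ± 36.6 RPM (1.10 ± 0.23, adjusted p = 0.0277), with 37.5 to 58.1 RPM in GSC and 77.2 to 162 RPM in GSCLC libraries and no overlap. Sparc, a matrix protein that binds collagen, fell from 130 ± 63.7 to 58.3 ± 11.5 RPM (-1.09 ± 0.26, adjusted p = 0.0463). Its 65.9 RPM in GSC_1 replicate 2 lay inside the GSCLC range.

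Of 6 tested collagen receptors 0 were called by limma and 0 were at an unadjusted p under 0.05. Itgb1, the β1 integrin chain, was at 162 ± 6.11 and 164 ± 47.1 RPM. Ddr1, a receptor kinase for collagen, was at 60.8 ± 9.34 and 83.0 ± 59.6 RPM, ranging from 26.9 to 169 RPM in GSCLC libraries. Of 6 tested genes of collagen breakdown, Mmp9 fell and 5 did not pass. Mmp9, a gelatinase that cuts type IV collagen, went from 18.8 ± 3.11 to 8.30 ± 1.44 RPM (-1.08 ± 0.25, adjusted p = 0.0435), with 14.2 to 23.0 RPM in GSC and 6.77 to 10.5 RPM in GSCLC libraries. Fcer1g, a marker of macrophages and other blood cells, fell in the same direction, from 11.3 ± 5.76 to 0.103 ± 0.135 RPM, but the sum of the other markers of that list overlapped between the kinds of line. The 7 markers summed to 11.6 to 30.4 RPM in GSC and 4.01 to 10.2 RPM in GSCLC libraries, and without Fcer1g to 5.22 to 11.5 and 3.99 to 10.2 RPM. The part of blood cells in the Mmp9 change was not tested. The peritubular list had 0 of 4 tested markers called by limma (2 at an unadjusted p under 0.05), with sums of 28.4 to 45.2 RPM in GSC and 17.8 to 59.3 RPM in GSCLC libraries. The endothelial list had 0 of 2 called (0 at an unadjusted p under 0.05). Of 4 tested Sertoli cell markers Clu fell, while Wt1 (1.48), Inha (0.66) and Rhox5 (1.26) had changes above 0 and did not pass, with a median of 0.96 over the 4. The list summed to 36.8 to 145 RPM in GSC and 23.7 to 121 RPM in GSCLC libraries. Amh was at 0 in all libraries.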

How the data were processed

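The values used are RPM as the authors deposited them, in 1 table of 26219 genes and 12 libraries. Cutadapt 1.3, TopHat 1.4.1, Cufflinks 2.2.0 and mm10 (GRCm38) are named in the submitters' processing notes; for their roles, the annotation and the use of strand, the sources used here give nothing. The steps of the values imply whole reads for 99.7% to 99.8% of them within 0.1 read, with a floor of 3 reads at 0.646 to 0.99 RPM, for counting error only. The rest prevented count tests.

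A gene entered the test if 2 or more libraries had 5 RPM or more. Tests were run on log2(RPM + 1), averaged over the 2 libraries of a line, with limma 3.58.1 in R 4.3.3 (mean-variance trend, two-sided, Benjamini-Hochberg, threshold 0.05), which was tested on simulated data. GSCLC and GSC lines were compared as 4 against 2, and the conditions in a fit of 3 groups. The labels call the libraries of a line biological replicates of the culture, and p-values rest on the spread between lines.

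Members and gene lists were chosen with earlier results of these data known. Values per library were given for called genes, Col2a1, the 2 highest members of each class with a mean of at least 5 RPM, and those with at least 20 RPM in 1 library and a 4-fold range of line means on the RPM + 1 scale. Col1a2, Col11a1 and Col3a1 entered by the last rule; Col4a1, Col6a4, Col4a6, Col9a2 and Col8a1 were added after their values were seen. At most 6 called genes per list were named. P4hb, Serpinh1, Lox, Itgb1, Ddr1, Dcn, Timp1, Pdgfrb, Acan, Sox9, Wt1, Inha and Rhox5, none called, were added after their values were seen, as were the sequences shown. Alternatives changed the pseudocount, filter, scaling, trend, unit and samples.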

Additional observations from a re-analysis of the deposited data

Results flagged for a closer look

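Over the 4 GSCLC lines Col18a1 stood at 74.3 RPM in GSCLC_3, against 128, 131 and 132 RPM in GSCLC_1, GSCLC_2 and GSCLC_4. The distance of this line to its nearest neighbour took nearly the whole range of the 4, on the log2(RPM + 1) scale, beyond the 95% limit of Dixon's test. Of 14 collagen genes looked at in this way, it was the only one, and chance alone flags about 1 group in 20. The low value was seen in both libraries of the line, at 65.0 and 83.6 RPM.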

How the results depend on the processing

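The count of 2 called collagen genes was 1 with a pseudocount of 5, 1 among genes of at least 20 RPM, 1 without a trend and 0 in the replicate 1 libraries alone (9 at an unadjusted p under 0.05); Col2a1 was the call lost in each, and Col5a1 also in the last. With 1 library or 1 line left out it ran from 0 to 3, with 0 without GSC_1 or without GSC_2. Over all genes 356 were called (143 higher, 213 lower). This became 142 with no filter, 212 at 20 RPM, 645 on single libraries with the line as a correlated block, 105 in replicate 1 and 179 in replicate 2 alone, and 12 to 536 with 1 library or 1 line left out (12 without GSC_2, 42 without GSC_1, 536 without GSCLC_3). The single-library fit gave 3 collagen calls, with Col13a1 added to the main calls at adjusted p = 0.0269. The replicate block, with replicate number added to that fit, gave 592 calls and the same 3 collagen calls, with Col13a1 at adjusted p = 0.0327. Over all tested genes, differences between replicates correlated at -0.122 to 0.11 over 15 pairs of lines, 2 of them over 0.1. This shows little pairing by replicate number over all genes, but cannot show whether fewer genes share a replicate difference. The sum of all fibroblast markers was higher in replicate 2 in each of the 6 lines. Between conditions 0 collagen genes were called in all 28 alternatives. The count of 1 collagen following the fibroblast sum in 6 lines was 0 with a sum of 5 markers, and in the 4 GSCLC lines alone, both chosen after seeing the data, 6 with all markers and 2 with the sum of 5; no line reached a 1.5-fold difference in the sum, so that alternative has no value, and edgeR was not run. Col1a2 and Col4a1 turned to 0.57 and 0.27, neither called, without line GSC_2. With 9 to 31 reads of Col2a1 per GSC library, depth limits how finely low collagens can be compared. The calls for Lamb1, Sparc, Mmp9 and the marker genes were not recomputed under the alternatives.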
